A study of Homo sapiens with 12 samples.

Results

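FOXO1, FOXO3, FOXO4, BCL6, INSR, IGF1R, IRS1, IRS2, CCNG2 and PIK3IP1 are 10 genes of the insulin and insulin-like growth factor pathway and of the FOXO transcription factors that the pathway controls. They were taken from the array by symbol, as the probe sets whose platform annotation gives 1 of these symbols and no other, which gave 34 of 54675 probe sets and 10 of the 19775 genes with such a probe set. The probe set with the highest mean over the 12 arrays stood for a gene, and the other probe sets served as a check. Expression was measured on Affymetrix human arrays in Sk-hep1, an established human line whose labels give a liver origin, ascites and an endothelial-type adenocarcinoma. The groups were 24 hours in high-fat medium (HFM), 24 hours in growth medium (GM), 12 hours in HFM and 12 hours in GM, with 3 arrays each. HFM was based on DMEM/F12 and GM on DMEM, all cells had been grown in DMEM with fetal bovine serum, and the sources used here do not name the fat of HFM. The media therefore differ in their base as well as in fat, and the contribution of each cannot be told apart. Whether the arrays of a group came from separate cultures is not stated in the labels, and the p-values below therefore reflect the spread between the samples at hand, which may be technical.

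The insulin receptor and the related IGF1 receptor phosphorylate adaptor proteins, chiefly IRS1 and IRS2, which recruit phosphoinositide 3-kinase (PI3K) and so activate the kinase AKT. AKT phosphorylates FOXO1, FOXO3 and FOXO4, which then leave the nucleus, and when the signal is weak they return and activate genes such as IRS2, INSR, CCNG2 and BCL6. In liver, FOXO1 is best known for the fasting programme, in which it drives genes of glucose production. PIK3IP1 is a membrane protein that inhibits PI3K, CCNG2 is an unconventional cyclin tied to cell cycle arrest, and BCL6 is a zinc finger repressor best known in germinal centre B cells. FOXO activity is set mainly by phosphorylation and location, which an expression array does not measure.

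The promoter windows of the members were read to show which hold the letters that forkhead factors and BCL6 are known to bind. Sequences are from RefSeq on GRCh38.p14 and run from 250 bases before to 50 bases after an annotated start. All 10 genes had at least 1 window, 15 in all. Windows were searched on both strands for GTAAACA, the forkhead core, and CAAAACA, a variant of it in the insulin response element, and for TTCCTAGAA, a BCL6 site whose search was added after the sequences had been seen. GTAAACA stood in 3.42% of all 35116 promoter windows, CAAAACA in 4.92%, either in 8.07% and TTCCTAGAA in 0.373%. A forkhead motif stood in 3 of the 15 member windows, those of IRS2, of FOXO4 and of 1 PIK3IP1 start, and the BCL6 motif stood in 1 BCL6 window. These windows are shown because they hold a motif, and the other BCL6 window and the CCNG2 window because these genes had the largest differences of the members. Each runs 5′ to 3′ along the gene, with motif matches in capitals. IRS2 is chr13:109786534-109786833 on the minus strand, BCL6 start 1 is chr3:187745419-187745718 on the minus strand and BCL6 start 2 is chr3:187736452-187736751 on the minus strand. CCNG2 is chr4:77156957-77157256 on the plus strand, FOXO4 is chrX:71095601-71095900 on the plus strand and PIK3IP1 start 2 is chr22:31292439-31292738 on the minus strand.
IRS2: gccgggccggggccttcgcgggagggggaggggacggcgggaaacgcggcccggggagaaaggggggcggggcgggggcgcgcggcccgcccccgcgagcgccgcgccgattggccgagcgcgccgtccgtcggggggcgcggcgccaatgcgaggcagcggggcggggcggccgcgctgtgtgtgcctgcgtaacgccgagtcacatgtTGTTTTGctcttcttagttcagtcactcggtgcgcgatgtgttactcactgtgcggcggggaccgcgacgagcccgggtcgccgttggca
BCL6 start 1: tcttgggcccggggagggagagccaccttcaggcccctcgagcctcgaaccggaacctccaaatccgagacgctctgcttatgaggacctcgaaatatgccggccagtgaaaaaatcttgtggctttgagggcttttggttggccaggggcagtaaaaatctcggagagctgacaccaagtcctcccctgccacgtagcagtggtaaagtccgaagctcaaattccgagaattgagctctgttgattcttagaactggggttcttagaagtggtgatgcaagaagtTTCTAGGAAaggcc
BCL6 start 2: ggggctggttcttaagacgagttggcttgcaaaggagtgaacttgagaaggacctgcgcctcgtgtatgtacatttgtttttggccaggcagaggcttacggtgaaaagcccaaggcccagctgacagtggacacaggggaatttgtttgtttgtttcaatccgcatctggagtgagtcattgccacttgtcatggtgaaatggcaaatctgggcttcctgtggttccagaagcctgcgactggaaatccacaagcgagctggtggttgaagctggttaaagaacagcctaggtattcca
CCNG2: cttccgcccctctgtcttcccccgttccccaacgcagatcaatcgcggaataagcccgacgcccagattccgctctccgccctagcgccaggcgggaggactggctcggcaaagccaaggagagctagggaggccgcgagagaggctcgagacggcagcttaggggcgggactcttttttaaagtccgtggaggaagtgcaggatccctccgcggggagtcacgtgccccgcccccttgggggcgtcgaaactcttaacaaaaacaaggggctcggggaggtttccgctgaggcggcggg
FOXO4: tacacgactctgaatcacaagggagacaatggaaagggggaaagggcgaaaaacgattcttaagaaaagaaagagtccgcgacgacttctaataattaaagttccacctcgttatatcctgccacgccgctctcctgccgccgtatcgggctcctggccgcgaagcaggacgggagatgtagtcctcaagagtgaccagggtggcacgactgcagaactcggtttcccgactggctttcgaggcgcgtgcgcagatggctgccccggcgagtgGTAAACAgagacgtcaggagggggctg
PIK3IP1 start 2: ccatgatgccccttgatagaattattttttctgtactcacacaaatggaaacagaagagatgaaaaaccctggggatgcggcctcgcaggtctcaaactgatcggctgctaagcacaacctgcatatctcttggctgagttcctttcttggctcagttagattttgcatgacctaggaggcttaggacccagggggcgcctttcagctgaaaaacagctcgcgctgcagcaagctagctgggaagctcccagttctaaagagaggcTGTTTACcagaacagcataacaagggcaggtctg
The IRS2 match is TGTTTTG, the reverse complement of CAAAACA, and begins at position 211 of its window. FOXO4 holds GTAAACA, and PIK3IP1 start 2 holds its reverse complement TGTTTAC, both after the start. BCL6 start 1 holds TTCTAGGAA, the reverse complement of TTCCTAGAA, at position 287, also after the start. A match is a description of these letters and not a bound site, and a window without a match says only that the letters are not in it.

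The values are on a log2 scale, as deposited by the authors after GCRMA. Array medians lay between 4.05 and 4.09, and no array pair looked like 1 hybridisation deposited again (lowest SD of the difference between arrays 0.154). The limma test took the 13130 genes that reached log2 4 on 3 or more arrays. All 10 members passed, FOXO4 with 9 of its 12 arrays at that level. The bioB and bioC hybridisation controls, spiked in after RNA extraction, averaged 9.10 on HFM 12-hour replicate 1 and 9.11 to 9.15 on the GM 12-hour arrays, against 8.64 to 8.90 on the other 8 arrays. This array is therefore left out in turn beside the 12-hour results. Every HFM 12-hour array had lower controls than every GM 12-hour array, replicate 1 only by little. The other HFM 12-hour arrays, at 8.85 and 8.90, were further below. Medium and control level thus cannot be told apart at 12 hours, least of all without replicate 1, so the values without this array are not freed of that difference. The ACTB 3' minus 5' difference, a measure of RNA integrity, was 1.58 ± 0.06 log2 units (SD, n = 3) in HFM and 1.07 ± 0.05 in GM at 24 hours, and 0.84 ± 0.13 in HFM and 0.89 ± 0.03 in GM at 12 hours. Of 12 endothelial markers 5 passed the filter, with ENG and ROBO4 highest at 7.39 and 6.71, while the defining CDH5, KDR, VWF and TEK averaged 2.39, 2.16, 3.09 and 3.45, below it. Of 6 epithelial markers 4 passed, with the keratins KRT8, KRT18 and KRT19 at 12.27, 13.54 and 11.16, while EPCAM and CDH1 averaged 2.64 and 2.62. Of 9 hepatocyte markers 4 passed, with TTR and CYP3A4 highest at 5.46 and 5.32 and ALB at 2.38. Of 7 leukocyte and B cell markers 3 passed, with CD79A at 6.08, CORO1A at 4.85 and CD14 at 4.73, while PTPRC and MS4A1 averaged 2.09 and 2.81. No list had all its markers above the filter. Summed over all 12 endothelial markers, the level was 8.22 to 8.34 in HFM and 8.50 to 8.61 in GM at 24 hours, and 8.45 to 8.64 in HFM and 8.98 to 9.03 in GM at 12 hours. Summed leukocyte and B cell markers, the cells in which BCL6 is best known, ran at 6.97 to 7.08 in HFM and 7.10 to 7.17 in GM at 24 hours, and at 7.17 to 7.31 in HFM and 7.62 to 7.73 in GM at 12 hours. Summed epithelial markers ran at 13.95 to 14.03 in HFM and 14.12 to 14.19 in GM at 24 hours, and at 14.23 to 14.39 in HFM and 14.48 to 14.52 in GM at 12 hours. Summed hepatocyte markers were higher in HFM at 24 hours, at 7.44 to 7.48 against 7.28 to 7.33 in GM, and lower at 12 hours, at 7.33 to 7.37 against 7.45 to 7.48 in GM. The part of these markers in the results was not tested.

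After 24 hours in HFM, BCL6, CCNG2, IRS2, INSR and FOXO3 were higher than in GM, and 0 members were called lower by limma (0 also at an unadjusted p under 0.05). After 12 hours the same 5 genes and FOXO1 were higher and PIK3IP1 was lower. A gene was called at a Benjamini-Hochberg adjusted p under 0.05 over all genes tested. Thus 5 of 10 members rose at 24 hours, where 20.6% of all genes tested were called higher and 37.5% lower. At 12 hours 6 members rose and 1 fell, where 28.9% of all genes were called higher and 33.0% lower. The median member difference was 0.37 at 24 hours and 0.29 at 12 hours, against -0.08 and -0.07 for all genes tested. HFM and GM arrays did not overlap for 8 members at 24 hours and 7 at 12 hours, and for 68.7% and 63.6% of all genes tested. Calls were common among all genes on these arrays. The members were chosen with earlier results of these data known, so their counts are descriptions and not independent support. With each array centred on its median, 8 members were called higher at 24 hours, the median of all genes was 0.10, and 58.6% of all calls were higher against 35.4% without centring. Without HFM 12-hour replicate 1, 8 members were called higher at 24 hours and 8 at 12 hours. By the mean of probe sets, 6 members were called higher and 1 lower at 24 hours, and 5 higher and 1 lower at 12 hours. As the samples are bulk RNA, fewer cells of one kind and less RNA per cell cannot be told apart. At 24 hours the ACTB 3' minus 5' difference, given above, was higher in HFM as were these genes, and its part in this and the later 24-hour results was not tested.

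**Figure D1:**
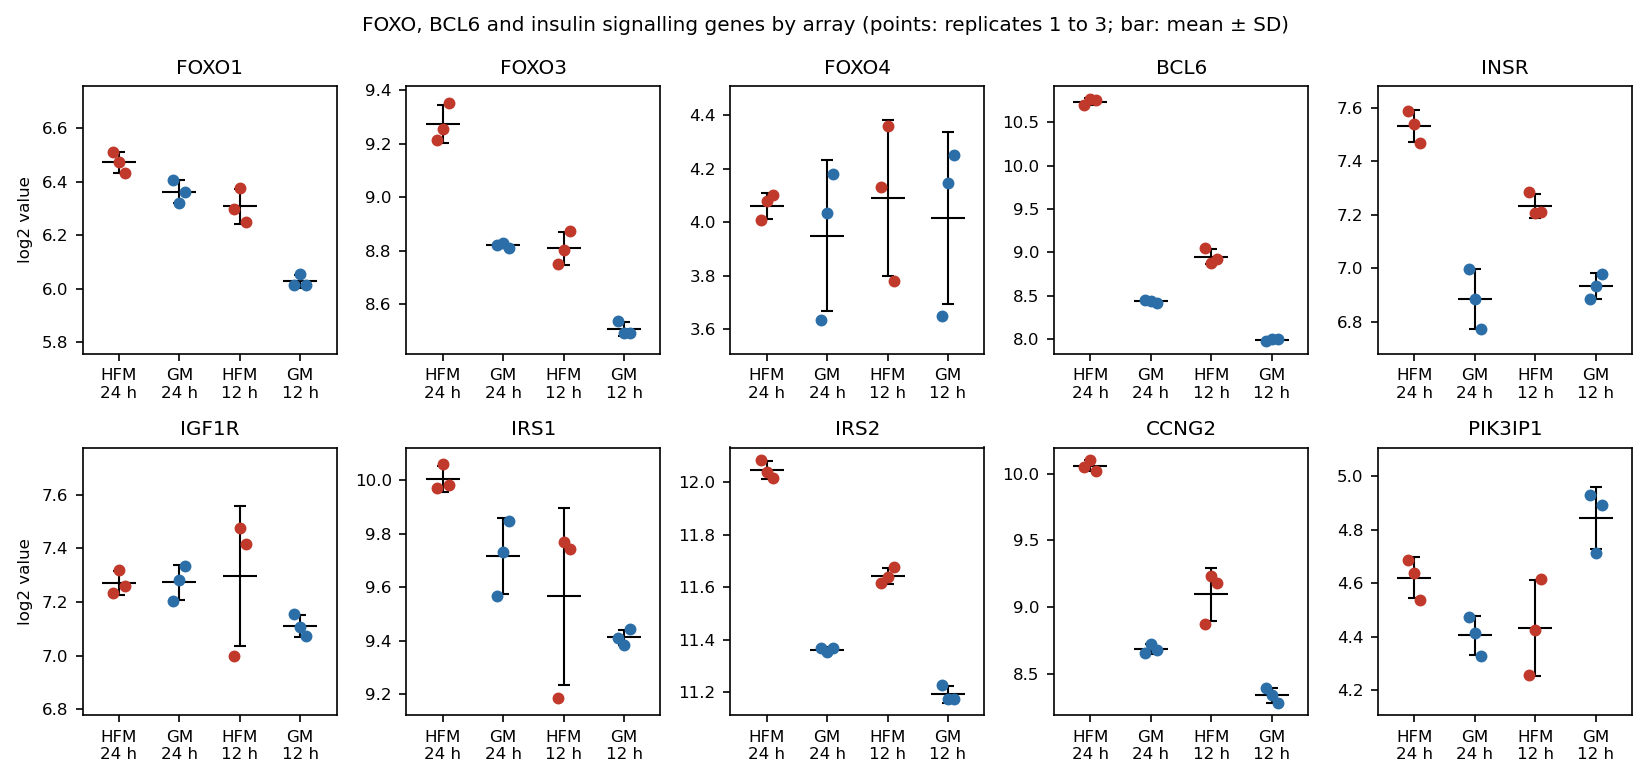
Log2 expression of each member's representative probe set on each array, 1 panel per gene with its own vertical axis, with points for the 3 arrays of a group and bars for the group mean and SD. BCL6, CCNG2 and IRS2 separate into 4 tiers with HFM at 24 hours on top, whereas FOXO4 and IGF1R overlap between media.

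BCL6, at chr3:187721377-187745468, had the largest difference of the members. Its probe set read 10.69, 10.76 and 10.76 in HFM at 24 hours and 8.45, 8.44 and 8.42 in GM at 24 hours, and 9.05, 8.88 and 8.92 in HFM at 12 hours and 7.9751, 7.9996 and 8.0017 in GM at 12 hours. Every HFM array was above every GM array, including the GM arrays of the other time. The difference was 2.30 ± 0.05 (SE, adjusted p = 3.53e-11) at 24 hours, a 4.93-fold level, and 0.96 ± 0.05 (adjusted p = 8.34e-08) at 12 hours, a 1.94-fold level. The group levels ran GM 12 hours, GM 24 hours, HFM 12 hours, HFM 24 hours, low to high, with no neighbours overlapping.

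CCNG2, at chr4:77157207-77170060, encodes cyclin G2, which rises as cells leave the cycle. It read 10.05, 10.11 and 10.02 in HFM at 24 hours and 8.65, 8.72 and 8.68 in GM at 24 hours, and 8.87, 9.23 and 9.18 in HFM at 12 hours and 8.39, 8.34 and 8.28 in GM at 12 hours. HFM arrays were again above GM arrays of both times, and HFM 12-hour replicate 1 was the lowest HFM array. The difference was 1.38 ± 0.08 (SE, adjusted p = 4.90e-08) at 24 hours, a 2.60-fold level, and 0.76 ± 0.08 (adjusted p = 1.23e-05) at 12 hours, a 1.69-fold level. Without HFM 12-hour replicate 1 the 12-hour difference was 0.87.

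Of the 2 receptors, INSR was higher in HFM at both times and IGF1R was called at neither. INSR, the insulin receptor at chr19:7112265-7294414, read 7.59, 7.54 and 7.47 in HFM and 6.999, 6.88 and 6.77 in GM at 24 hours, and 7.29, 7.21 and 7.21 in HFM and 6.88, 6.93 and 6.98 in GM at 12 hours. The media did not overlap at either time, while GM arrays of the 2 times overlapped each other. INSR rose by 0.65 ± 0.06 (SE, adjusted p = 3.04e-06) at 24 hours and by 0.30 ± 0.06 (adjusted p = 0.00156) at 12 hours. By the mean of its probe sets INSR differed by 0.26 at 24 hours (called) and by 0.11 at 12 hours, where the call was lost (adjusted p = 0.101). IGF1R, the receptor of IGF1 and IGF2 at chr15:98648539-98964530, read 7.23, 7.32 and 7.26 in HFM and 7.20, 7.28 and 7.33 in GM at 24 hours, and 6.997, 7.48 and 7.42 in HFM and 7.15, 7.11 and 7.07 in GM at 12 hours. Its media overlapped at both times, and HFM 12-hour replicate 1 was the lowest of all arrays. The IGF1R difference was -0.002 ± 0.10 (SE, adjusted p = 0.990) at 24 hours and 0.19 ± 0.10 (adjusted p = 0.132) at 12 hours. Without HFM 12-hour replicate 1 the 12-hour difference was 0.34 and was called (adjusted p = 0.000154).

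Of the 2 adaptors, IRS2 rose at both times and IRS1 was called at neither. IRS2, at chr13:109752695-109786583, is the adaptor through which FOXO factors and sterol regulators tune hepatic insulin signalling. It read 12.09, 12.04 and 12.02 in HFM and 11.37, 11.35 and 11.37 in GM at 24 hours, and 11.62, 11.64 and 11.68 in HFM and 11.23, 11.17 and 11.17 in GM at 12 hours. Its 4 groups ran in the order of BCL6 and CCNG2, with no overlap. The rise was 0.69 ± 0.04 (SE, adjusted p = 9.13e-08) at 24 hours, a 1.61-fold level, and 0.45 ± 0.04 (adjusted p = 5.58e-06) at 12 hours. IRS1, at chr2:226731312-226799820, read 9.97, 10.06 and 9.98 in HFM and 9.57, 9.73 and 9.85 in GM at 24 hours, and 9.19, 9.77 and 9.74 in HFM and 9.41, 9.38 and 9.44 in GM at 12 hours. HFM lay above GM at 24 hours without overlap, and at 12 hours HFM replicate 1 lay below all GM arrays and the other 2 above them. The difference was 0.29 ± 0.13 (SE, adjusted p = 0.0784) at 24 hours and 0.15 ± 0.13 (adjusted p = 0.318) at 12 hours. Leaving out HFM 12-hour replicate 1 gave 0.34 (adjusted p = 0.00142) at 12 hours, and a call at 24 hours (adjusted p = 0.00206) through the smaller pooled spread alone. By the mean of its probe sets IRS1 was called lower at 24 hours (-0.69, adjusted p = 6.56e-08). A term for the level of the hybridisation controls, which compares the media at 12 hours through HFM replicate 1, gave -0.23 at 12 hours.

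The FOXO factors themselves had smaller differences. FOXO3, at chr6:108559825-108684774, read 9.21, 9.25 and 9.35 in HFM and 8.82, 8.83 and 8.81 in GM at 24 hours, and 8.75, 8.80 and 8.87 in HFM and 8.54, 8.49 and 8.49 in GM at 12 hours. It rose by 0.45 ± 0.05 (SE, adjusted p = 1.22e-05) at 24 hours and by 0.30 ± 0.05 (adjusted p = 0.000389) at 12 hours. FOXO1, at chr13:40555667-40666641, is the main hepatic member of the family, and its levels lay closer together. It read 6.51, 6.47 and 6.43 in HFM and 6.41, 6.32 and 6.36 in GM at 24 hours, and 6.30, 6.38 and 6.25 in HFM and 6.01, 6.06 and 6.01 in GM at 12 hours. FOXO1 rose by 0.28 ± 0.05 (SE, adjusted p = 0.000543) at 12 hours. At 24 hours the arrays of the media did not overlap but the difference of 0.11 ± 0.05 (SE) missed the threshold (adjusted p = 0.0798); without HFM 12-hour replicate 1 the same difference passed (adjusted p = 0.0438). For both genes GM at 12 hours was lowest, HFM at 24 hours highest, and HFM at 12 hours overlapped GM at 24 hours.

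FOXO4, at chrX:71095851-71103532, was near the detection filter. It read 4.01, 4.08 and 4.10 in HFM and 3.63, 4.03 and 4.18 in GM at 24 hours, and 4.13, 4.36 and 3.78 in HFM and 3.65, 4.15 and 4.25 in GM at 12 hours. All 4 groups overlapped, and the differences of 0.11 ± 0.18 (SE, adjusted p = 0.631) at 24 hours and 0.08 ± 0.18 (adjusted p = 0.727) at 12 hours could not be told from the spread.

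PIK3IP1, at chr22:31281593-31292534, encodes the PI3K inhibitor and was the only member called lower in HFM. It read 4.69, 4.64 and 4.54 in HFM and 4.47, 4.42 and 4.33 in GM at 24 hours, and 4.26, 4.43 and 4.62 in HFM and 4.93, 4.71 and 4.89 in GM at 12 hours. HFM was below GM at 12 hours and above it at 24 hours, with no overlap at either time. The difference was 0.22 ± 0.09 (SE, adjusted p = 0.0604) at 24 hours, and PIK3IP1 fell by 0.41 ± 0.09 (adjusted p = 0.00211) at 12 hours. The 24-hour difference was called without HFM 12-hour replicate 1 (adjusted p = 0.0237) or replicate 3 (adjusted p = 0.0302), while its size does not depend on those arrays. PIK3IP1 was also called higher at 24 hours with only the groups compared (adjusted p = 0.0147) and with centred arrays (0.39, adjusted p = 0.00723). By the mean of its probe sets PIK3IP1 was not called at 24 hours (0.14, adjusted p = 0.160). Its low signal limits what can be read from it, as values near the filter understate a fold.

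**Figure D2:**
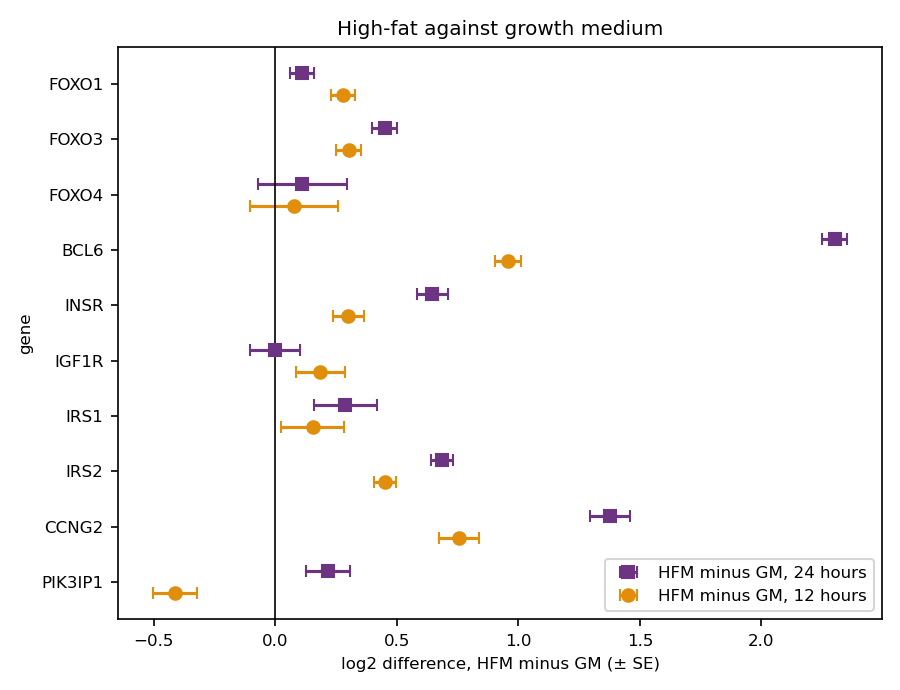
Log2 difference between HFM and GM for each member, with squares for 24 hours, circles for 12 hours and bars of 1 standard error from limma. BCL6 at 2.30 and CCNG2 at 1.38 lie farthest to the right at 24 hours, and PIK3IP1 at -0.41 is the lowest point.

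The HFM effect was more positive at 24 than at 12 hours for 5 members and more negative for 0 by limma's test of the interaction (1 at an unadjusted p under 0.05), where 19.4% of all genes tested were called positive and 33.4% negative. For BCL6 the effect at 24 hours exceeded that at 12 hours by 1.34 ± 0.07 (SE, adjusted p = 7.57e-08). PIK3IP1 had 0.63 ± 0.13 (adjusted p = 0.00151), which spans its change of sign, and CCNG2 had 0.62 ± 0.12 (adjusted p = 0.000862). Other probe sets were read from the fit over all probe sets given below. The other tested CCNG2 probe sets had 0.99 and 0.61, both called, and -0.15, not called (adjusted p = 0.396). The second tested PIK3IP1 probe set had 0.31 and was not called (adjusted p = 0.120). For INSR the value was 0.35 ± 0.09 (adjusted p = 0.00668) and for IRS2 0.23 ± 0.06 (adjusted p = 0.00821). INSR probe sets differed in this value: 1 more was called, at 0.62 ± 0.18 (SE, adjusted p = 0.0107), and 3 were not. That probe set averaged 4.09, near the filter, and had -0.30 at 12 hours and 0.32 at 24 hours. INSR had 0.15 (adjusted p = 0.120) for the mean of its probe sets and -0.11 without probe sets whose names end in _x_at or _s_at. FOXO3 and FOXO1 were not called, with 0.15 ± 0.07 (SE, adjusted p = 0.108) for FOXO3 and -0.17 ± 0.07 (adjusted p = 0.0637) for FOXO1. The second tested FOXO1 probe set was called negative, at -0.47 ± 0.11 (SE, adjusted p = 0.00448). A FOXO3 probe set that averaged 3.88 was called at 0.48 (adjusted p = 0.0149), and the other FOXO3 probe sets, at 0.16 and 0.10, were not. FOXO3 was called with centred arrays (0.35, adjusted p = 0.00496), the mean of probe sets (0.22, adjusted p = 0.0379), a repeated quantile normalisation (0.22, adjusted p = 0.0409) and the hybridisation class term (0.21, adjusted p = 0.0280). Without HFM 12-hour replicate 1, FOXO1 (adjusted p = 0.0388) and IGF1R (-0.34, adjusted p = 0.00127) were called negative, and without replicate 3 FOXO1 was (adjusted p = 0.0402). With all arrays, another IGF1R probe set was called positive (0.86 ± 0.11, SE, adjusted p = 5.83e-05). A further IGF1R probe set had -0.24 and was not called, so the IGF1R probe sets give no single direction here. By the mean of probe sets IRS1 was called negative (-0.77, adjusted p = 1.15e-06).

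The levels of these genes also differed between 24 and 12 hours. In HFM, 7 of 10 members were higher at 24 than at 12 hours and 0 were lower by limma (0 also at an unadjusted p under 0.05), where 20.1% of all genes tested were called higher and 43.1% lower. The 3 uncalled members were FOXO4, IGF1R and PIK3IP1, with differences of -0.03, -0.03 and 0.19. BCL6 differed by 1.79, CCNG2 by 0.97, FOXO3 by 0.46, IRS1 by 0.44, IRS2 by 0.40, INSR by 0.30 and FOXO1 by 0.17. By the mean of probe sets the calls of INSR (0.07, adjusted p = 0.275) and FOXO1 (0.089, adjusted p = 0.152) were lost. By the same mean IRS1 was called lower (-0.48, adjusted p = 1.68e-06), and 4 members were called higher and 1 lower. With only the 2 groups compared the call of FOXO1 was lost (adjusted p = 0.0703). Without HFM 12-hour replicate 1 the IRS1 value was 0.25 and IGF1R was called lower (-0.18, adjusted p = 0.00944), and without replicate 3 PIK3IP1 was called higher (0.28, adjusted p = 0.0138). Of the other IGF1R probe sets, with all arrays, 1 was called higher (0.43, adjusted p = 0.000502) and 1 lower (-0.35, adjusted p = 0.0166). In GM, 5 members were higher at 24 than at 12 hours and 1 was lower, where 29.4% of all genes tested were called higher and 40.5% lower. There BCL6 differed by 0.44, CCNG2 by 0.35, FOXO1 by 0.33, FOXO3 by 0.31 and IRS2 by 0.17, while PIK3IP1 fell by 0.44 (adjusted p = 0.00104). In GM all 12-hour arrays had higher bioB and bioC controls than all 24-hour arrays, so time and control level cannot be told apart. With the hybridisation class term, which rests on HFM 12-hour replicate 1, CCNG2 differed by 0.01, IRS2 by 0.13 and PIK3IP1 by -0.70 in GM. INSR had -0.05 (adjusted p = 0.513). IRS1 had 0.30 (adjusted p = 0.0553) and was called when any 1 HFM 12-hour array or GM 24-hour replicate 1 was left out, with adjusted p of 0.00127 to 0.0486. IGF1R, with 0.16, was called without HFM 12-hour replicate 1 (adjusted p = 0.00658). Another IGF1R probe set was called lower with all arrays (-0.43, adjusted p = 0.000593), and a further probe set had -0.11 and was not called. These contrasts share arrays with the comparisons of the media, so their values stand side by side and are not independent.

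The other probe sets of each gene were tested in a fit over all 29787 probe sets that passed the filter, of which 58.2% were called at 24 hours and 59.0% at 12 hours. For BCL6, IRS2 and CCNG2 all of them that were tested were higher in HFM at both times. The other BCL6 probe sets had 3.36 ± 0.13 and 2.50 ± 0.16 (SE) at 24 hours and 1.12 and 0.79 at 12 hours. For CCNG2 they had 2.64, 1.37 and 0.76 at 24 hours and 1.66, 0.75 and 0.91 at 12 hours. The second IRS2 probe set had 1.08 ± 0.08 (SE) at 24 hours and 0.60 at 12 hours. The direction was the same in every tested probe set of these 3 genes, and the size varied.

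For the remaining members the probe sets disagreed in part. FOXO3 had 3 more, all called higher at 24 hours with 0.72, 0.43 and 0.33, and 2 of them at 12 hours. A further 3 probe sets annotated to both FOXO3 and its copy FOXO3B were left out, and how far that copy adds to the other FOXO3 signals was not tested. FOXO1 had 1 more that passed the filter, with 0.36 (called) at 12 hours and -0.11 (adjusted p = 0.282) at 24 hours. Of 4 further INSR probe sets, 1 was called higher at both times with 0.33 at 24 and 0.44 at 12 hours, 1 at 24 hours only with 0.32, and 2 at neither. The INSR probe set called at 24 hours only averaged 4.09, near the filter, and had -0.30 (adjusted p = 0.0541) at 12 hours. One IGF1R probe set had 0.54 ± 0.08 (SE, adjusted p = 0.000101) at 24 hours and -0.32 ± 0.08 (adjusted p = 0.00464) at 12 hours, where the representative was called at neither. IRS1 differed most between probe sets: 1 read 4.35, 4.43 and 4.67 in HFM and 6.65, 6.50 and 6.40 in GM at 24 hours, a difference of -2.03 ± 0.10 (SE, adjusted p = 6.05e-09). Another had -0.34 ± 0.09 (SE, adjusted p = 0.00501), against 0.29 for the representative. The probe sets of IRS1 thus give no single direction at 24 hours. The second tested PIK3IP1 probe set had 0.11 at 24 and -0.19 at 12 hours and was not called.

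**Figure D3:**
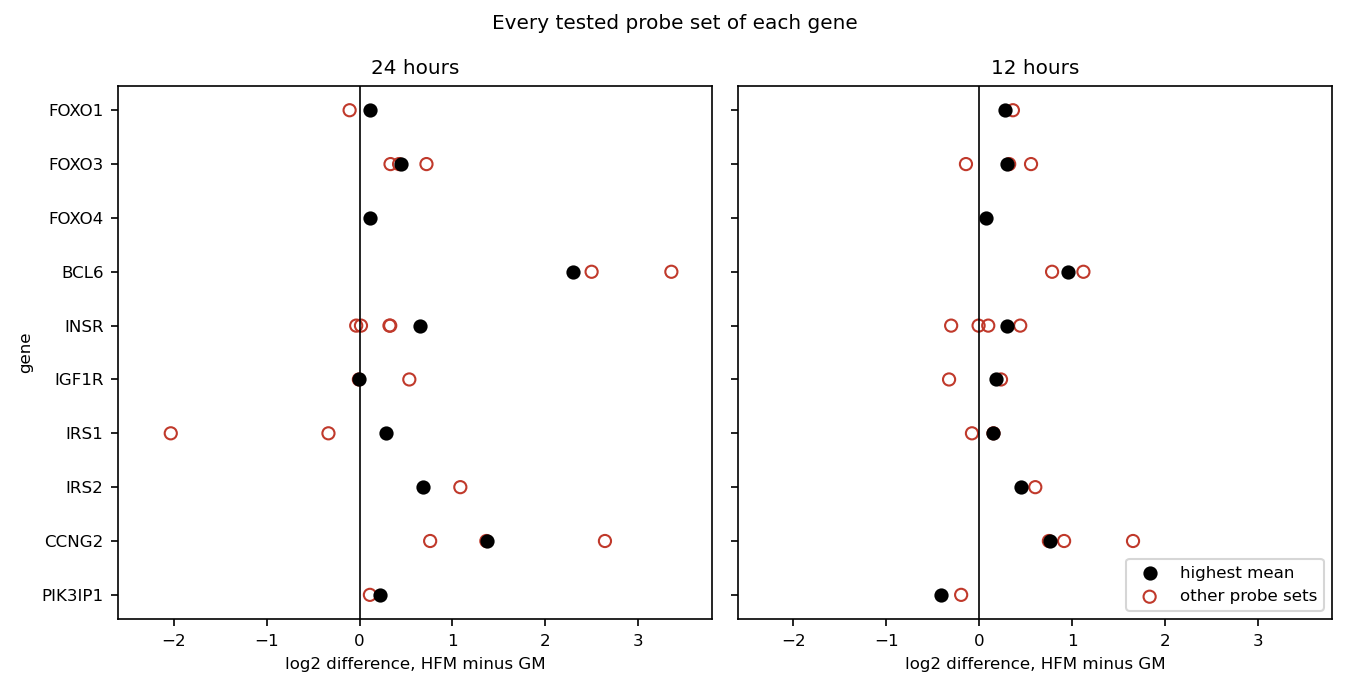
Log2 difference between HFM and GM for every member probe set that passed the filter, at 24 hours (left) and 12 hours (right), with filled symbols for the representative and open symbols for the others. BCL6, CCNG2 and IRS2 lie to the right of 0 throughout, while IRS1 spans from -2.03 to 0.29 at 24 hours.

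Genes around the members were described through lists, which share some genes such as SOCS2 and CDKN1A, and which hold none of the members. The lists were chosen with earlier results of these data known, so their shares are descriptions and not independent support. Their counts stand beside the 20.6% of all genes tested that were higher and the 37.5% that were lower in HFM at 24 hours, and the 28.9% and 33.0% at 12 hours. Of 40 symbols listed as FOXO targets other than the members, 38 were on the array and 28 were tested. Of these 28 genes, 24 (85.7%) rose in HFM at 24 hours and 1 fell (3.57%). Their median difference was 0.61 against -0.08 for all genes tested. At 12 hours 17 rose (60.7%) and 4 fell (14.3%), with a median of 0.32 against -0.07. TXNIP, an arrestin-family protein that restrains glucose uptake, averaged 11.92 ± 0.02 (SD, n = 3) in HFM and 8.78 ± 0.06 in GM at 24 hours, a difference of 3.14, and differed by 1.18 at 12 hours. Its relative ARRDC4 differed by 1.64 at 24 and 1.46 at 12 hours. PDK4, the kinase that turns off pyruvate dehydrogenase in fasting, differed by 1.60 at 24 and 0.48 at 12 hours, and the stress gene GADD45B by 1.55 at 24 hours. The 1 gene of this list that fell at 24 hours, named after its value was seen, was KLF2, a zinc finger factor of endothelial and T cells, at -1.40. IGFBP1, also a FOXO1 target, was counted in the list of binding proteins and not here, and it fell by 1.28 at 24 hours. Averaged over all its probe sets PDK4 differed by 0.65 at 24 hours, and without _x_at and _s_at probe sets GADD45B differed by 0.35 and KLF2 by -0.29. A second target was called lower at 24 hours without HFM 12-hour replicate 1 or without GM 24-hour replicate 3.

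Corepressors of BCL6 and genes it is known to repress in B cells formed 1 list, of which 12 of 21 tested (57.1%) fell in HFM at 24 hours and 5 rose (23.8%, near the share of all genes), with a median difference of -0.28 against -0.08 for all genes tested. Only 3 rose when GM 24-hour replicate 1 or 3 or HFM 24-hour replicate 2 was left out. At 12 hours 10 fell (47.6%) and 4 rose (19.0%), with a median of -0.16 against -0.07. PRDM1, which drives plasma cell differentiation, averaged 2.78 ± 0.27 (SD, n = 3) in HFM and 5.83 ± 0.03 in GM at 24 hours, and differed by -3.04 ± 0.11 (SE, adjusted p = 1.23e-09). HDAC4, a histone deacetylase that joins BCL6 complexes, averaged 3.54 ± 0.28 in HFM and 6.15 ± 0.13 in GM, and 1 of its other probe sets was called the opposite way. Both HFM means were under the filter level, and by the mean of all probe sets the differences were -1.09 for PRDM1 and -1.22 for HDAC4. The inhibitor of differentiation ID2 rose by 1.78 and the chemokine receptor CXCR4 by 1.23 at 24 hours, while ID2 fell by 0.30 at 12 hours (adjusted p = 0.00137). ATR, a DNA damage kinase, was lower by 0.28 at 24 hours and higher by 0.59 at 12 hours, and the 24-hour call was lost with centred arrays (-0.10).

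Upstream of FOXO the lists moved in both directions. Of 10 insulin and IGF ligands and binding proteins, 3 rose (30.0%) and 1 fell (10.0%) at 24 hours, while 1 rose (10.0%) and 6 fell (60.0%) at 12 hours (medians 0.05 and -0.50), and 2 fell at 24 hours without HFM 12-hour replicate 1. IGFBP1, a secreted IGF binding protein and a classical FOXO1 target in liver, averaged 10.63 ± 0.10 (SD, n = 3) in HFM and 11.91 ± 0.21 in GM at 24 hours, and fell by 1.28 at 24 hours, whereas IGFBP3 rose by 0.65 at 24 and 0.52 at 12 hours. At 12 hours IGFBP1 differed by -0.78 (adjusted p = 0.0199), by -0.38 without HFM replicate 1, and missed the threshold without GM replicate 2 (adjusted p = 0.0506). The mannose 6-phosphate and IGF2 receptor IGF2R was 0.45 higher at 24 hours and 0.20 lower at 12 hours. IGFBP5 fell by 0.84 at 12 hours. IGFALS, near the filter, was 0.34 higher at 24 hours and was not called without HFM 24-hour replicate 1 (0.21) or GM 24-hour replicate 2 (0.26). Of 18 receptor adaptors and negative regulators, 5 rose and 5 fell at 24 hours (27.8% each), and 5 rose (27.8%) and 3 fell (16.7%) at 12 hours (medians 0.01 and 0.08). The higher calls at 12 hours were near the share of all genes. Without GM 24-hour replicate 3, 3 rose at 24 hours, and without HFM 12-hour replicate 1, 6 fell at 12 hours. SOCS1 and SOCS3, which block cytokine and insulin receptors, differed by -0.67 and -1.14 at 24 hours and by -1.15 and -0.80 at 12 hours, all called. SOCS2, of the same family, fell by 1.07 at 24 hours, and the ubiquitin ligase CBLB rose by 1.44, while 1 of its other probe sets was called the opposite way.

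Genes of the PI3K and AKT step are given singly, chosen by the size of their differences, and they do not show how the other genes of that step moved. RICTOR, the mTORC2 subunit needed for full AKT activation, rose by 0.93 at 24 and 0.92 at 12 hours. SGK1, an AKT relative that also phosphorylates FOXO3, rose by 0.78 at 24 hours and the lipid kinase PIK3C2A by 0.61 at 24 and 0.74 at 12 hours, whereas the regulatory subunit PIK3R3 fell by 0.78 at 24 hours. The lipid phosphatase INPP4B fell by 0.76 at 24 hours and rose by 0.51 at 12 hours. Of 23 FOXO regulators, 5 rose (21.7%) and 10 fell (43.5%) at 24 hours, near the shares of all genes, and 10 rose (43.5%) and 3 fell (13.0%) at 12 hours (medians -0.08 and 0.12). With centred arrays 8 rose and 8 fell at 24 hours, and without HFM 12-hour replicate 3, 1 fell at 12 hours. The acetyltransferases EP300 and CREBBP and the ubiquitin ligase subunit SKP2 fell, with differences of -0.84, -0.66 and -0.76 at 24 hours, and the deacetylase SIRT1 rose by 0.74. The kinases STK3 and MAPK8 rose by 0.91 and 0.58 at 12 hours.

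Of 18 cyclins and cell cycle exit genes, 7 rose (38.9%) and 9 fell (50%) at 24 hours, and 8 rose (44.4%) and 7 fell (38.9%) at 12 hours (medians -0.13 and 0.04). The S phase cyclin CCNE2 was 1.08 lower at 24 hours and 0.62 higher at 12 hours. CCNA2, its successor in the cycle, was higher by 0.55 at 12 hours and differed by -0.20 at 24 hours, a call that was lost with centred arrays (-0.02) and without several single arrays (adjusted p up to 0.162). The transcription factor E2F5 and the pocket protein RBL1 fell, with differences of -1.69 and -1.65 at 24 hours, while the cyclin-dependent kinase inhibitor CDKN1C rose by 1.04.

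**Figure D4:**
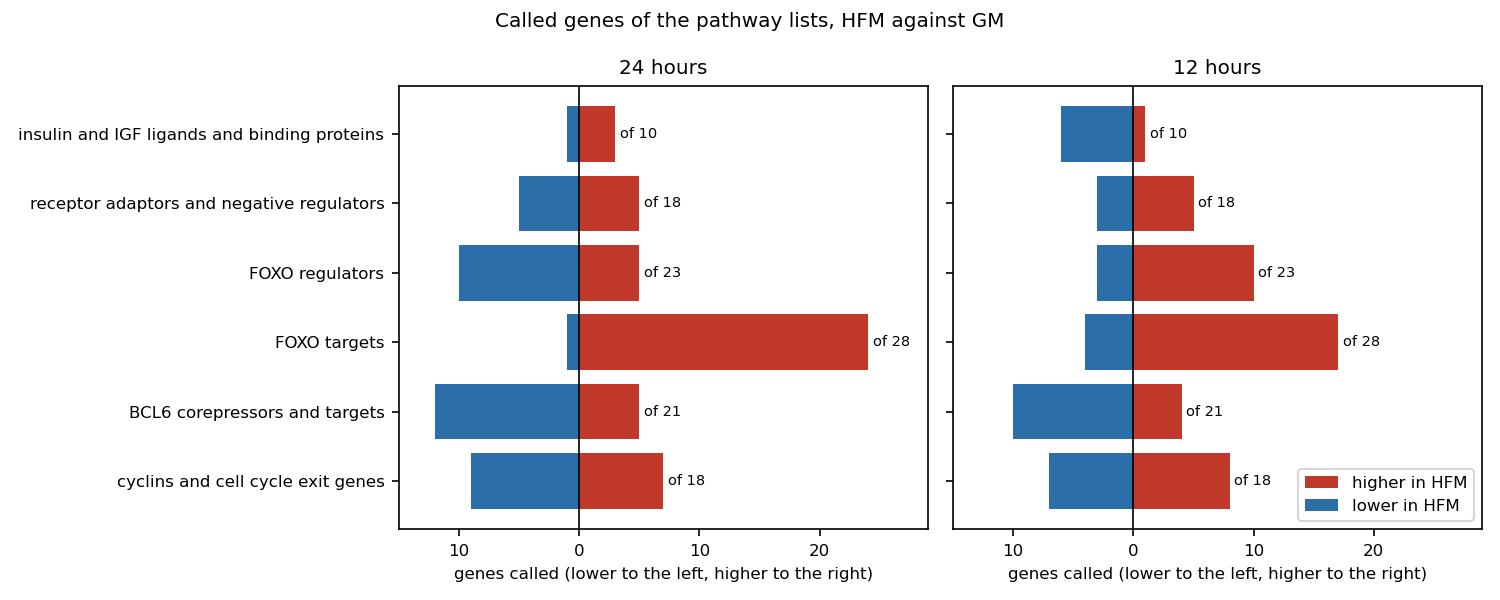
Number of genes called higher and lower in HFM than in GM in each of 6 lists at 24 and 12 hours, with the number tested beside each pair of bars. FOXO targets have 24 of 28 higher and 1 lower at 24 hours, where 20.6% of all genes tested were called higher and 37.5% lower. The other lists have calls in both directions, some of them unevenly. BCL6 corepressors and targets have 5 higher and 12 lower at 24 hours. At 12 hours ligands and binding proteins have 1 higher and 6 lower, and FOXO regulators 10 higher and 3 lower, where 28.9% of all genes were higher and 33.0% lower. The lists were chosen with earlier results of these data known.

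The genes whose pattern over the 12 arrays was most like a FOXO factor or BCL6 were ranked by Pearson's r, which describes these arrays only, since arrays of 1 group share their condition. For BCL6 they were DDIT3, the stress factor CHOP, at an r of 0.998, TXNIP at 0.997 and the corepressor CBFA2T2 at 0.997. DDIT3 differed between media by 3.22 at 24 hours and 1.12 at 12 hours. For FOXO3 they were SLC35A3, ITGB8 and SLC25A30 at 0.99 each, and for FOXO1 NACA, ZNF462 and RAB11FIP2 at 0.98 each. For FOXO4, whose groups overlapped, the closest were LINC02610 at 0.81, NKAIN4 at 0.73 and NPL at 0.68.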

How the data were processed

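Total RNA of 12 Sk-hep1 samples was labelled and hybridised to Affymetrix human arrays. The deposited log2 values were made by the authors with GCRMA (background correction, quantile normalisation and summary of each probe set), per the submitters' processing notes; the sources used here give no version. Samples were grouped by medium and time from the labels. Probe sets were named by the platform annotation: 41097 had 1 symbol, 1801 several and 11777 none, and the last 2 kinds were given no gene name. Matching 41043 Entrez identifiers to RefSeq changed 0 symbols. A linear model of 4 group means was fitted to 13130 genes with limma 3.58.1 in R 4.3.3 (lmFit, eBayes), with Benjamini-Hochberg adjustment over all of them. A gene was called at an adjusted p under 0.05, errors beside differences are standard errors with n = 3 arrays a group, and list genes are given with the same test. The number of arrays limits the precision.

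The members and lists were chosen with earlier results of these data known. All members were named whatever their values, and from each list the 4 called genes with the largest difference at 24 hours and the 2 at 12 hours. For each FOXO factor and BCL6, the 3 genes with the highest r were named. Counts for 1 of the lists are not reported here. Replicate numbers were not used to pair the samples. Deviations of arrays with 1 number correlated at -0.17 to 0.42, and those of arrays with different numbers at -0.49 to 0.44. These overlapping ranges do not decide whether the numbers pair the samples. Tried as alternatives were a filter at log2 6, no filter, averaging the probe sets of a gene and dropping _x_at and _s_at probe sets. Others were median centring, a repeated quantile normalisation, robust trended eBayes and only the groups compared. A replicate block, a term for the hybridisation control class and leaving out each array were also tried. The class was set from bioB and bioC after their values were seen. The pipeline was tested on simulated data. Figures used matplotlib 3.10.9 in Python 3.11.15.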

Additional observations from a re-analysis of the deposited data

Results flagged for a closer look

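The HFM effect on these genes differed between 24 and 12 hours by limma's test of the difference itself, which uses all 4 groups. Values are the effect at 24 hours minus that at 12 hours on the log2 scale, and a positive value means a more positive HFM effect at 24 hours. Among the members, BCL6 had 1.34, PIK3IP1 0.63, CCNG2 0.62, INSR 0.35 and IRS2 0.23. For PIK3IP1 the 12-hour effect was below 0. Its 24-hour difference was not called in the fit given above and was called in some alternatives only. The difference between times was thus tested, and a rise at 24 hours depends on the setting. The second tested PIK3IP1 probe set had 0.31 for the difference between times and was not called. The other tested CCNG2 probe sets had 0.99 and 0.61, both called, and -0.15, not called. Of the 5 INSR probe sets 2 were called for the difference between times. The called probe set other than the representative, at 0.62, was near the filter and had -0.30 at 12 hours. The mean of all INSR probe sets gave 0.15 and was not called.

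Among FOXO targets, TXNIP had 1.96, GADD45B 1.41 and PDK4 1.12. Among BCL6 corepressors and targets, ID2 had 2.09 and CXCR4 1.24, while PRDM1 had -2.77, HDAC4 -2.05 and ATR -0.87. Among ligands, binding proteins and their receptor, IGFBP5 had 0.83, IGF2R 0.64 and IGFALS 0.47. Of the adaptors and negative regulators, CBLB had 1.06, SOCS1 0.48 and SOCS2 -0.96. Of genes of the PI3K and AKT step, SGK1 had 0.25, PIK3R3 -0.81 and INPP4B -1.27. The FOXO regulators SKP2, EP300, STK3, CREBBP and MAPK8 had -0.88, -0.78, -0.77, -0.42 and -0.39. Of the cell cycle genes, CDKN1C had 0.75, CCNA2 -0.75, E2F5 -1.49, RBL1 -1.66 and CCNE2 -1.70. Both effects are measured against GM of their own time, and GM also differed between times.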

How the results depend on the processing

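Over all alternatives, 983 of the members' values kept direction and side of the threshold, 38 passed it newly, 7 no longer passed and 42 changed sign. BCL6, CCNG2, FOXO3, IRS2 and PIK3IP1 never changed sign, and BCL6 kept its side in all 109 values. Many of these values could not change sign, so the counts overstate how far the signs were tried. A change of filter, robust trended eBayes, only the groups compared and the replicate block leave a difference itself unchanged. So does leaving out an array of a group not compared. In these settings only the adjusted p could move. The cause of the changes of sign was not tested. With probe sets averaged per gene, IRS1 had -0.69 (adjusted p = 6.56e-08) at 24 hours and -0.77 (adjusted p = 1.15e-06) for the difference between times. It had -0.48 (adjusted p = 1.68e-06) over time in HFM. IGF1R then had 0.12 at 24 hours, -0.0145 at 12 hours, 0.13 for the difference between times and -0.14 over time in GM (adjusted p = 0.00892). By the same mean PIK3IP1 had -0.21 at 12 hours and 0.35 for the difference between times, and FOXO1 0.16 at 12 hours. With centred arrays, IGF1R had 0.18 at 24 hours, 0.0146 for the difference between times and 0.19 over time in HFM, FOXO1 had 0.033 for the difference between times and FOXO4 0.19 over time in HFM. A repeated quantile normalisation gave IGF1R 0.052 at 24 hours and 0.059 over time in HFM. Without _x_at and _s_at probe sets, INSR had -0.11 for the difference between times and -0.21 over time in HFM. With the hybridisation class term, which compares HFM with GM at 12 hours through 1 array, IGF1R had -0.11 and IRS1 -0.23 at 12 hours, IGF1R 0.11 and FOXO4 -0.0048 for the difference between times, and INSR 0.031, IGF1R -0.29 (adjusted p = 0.0113) and IRS1 -0.27 over time in GM. CCNG2 over time in GM was 0.01 with that term.

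With single arrays left out, FOXO4 ranged over -0.045 to 0.23 at 24 hours, -0.11 to 0.23 at 12 hours, -0.12 to 0.22 for the difference between times, -0.25 to 0.091 over time in GM and -0.18 to 0.10 over time in HFM. IGF1R ranged over -0.036 to 0.028 at 24 hours and -0.18 to 0.064 over time in HFM, INSR over -0.10 to 0.0086 over time in GM and IRS1 over -0.056 to 0.24 for the difference between times. Of all genes tested, 7623 were called at 24 hours, 8123 at 12 hours, 6931 for the difference between times, 9182 over time in GM and 8290 over time in HFM. At least 2-fold differences were 983, 286, 1045, 561 and 1004 of these. These counts do not pair the samples by replicate number. With a replicate block the counts were 7757, 8267, 7073, 9247 and 8367, and IRS1 was called at 24 hours (adjusted p = 0.0438) and over time in GM (adjusted p = 0.0302).

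Centring each array moved the share of calls that were higher to 58.6% against 35.4% at 24 hours, to 61.8% against 36.8% for the difference between times and to 57.5% against 31.8% over time in HFM. The median of all genes was then 0.10, 0.16 and 0.10, against -0.08, -0.04 and -0.12. A repeated quantile normalisation gave 47.4% for the difference between times. With centred arrays FOXO targets had 25 higher and 1 lower at 24 hours. The counts of FOXO targets called higher stayed within 1.5 times of the given counts in all alternatives at both times. Other list counts moved more. Without _x_at and _s_at probe sets, ligands and binding proteins had 0 higher and 2 lower at 24 hours. BCL6 corepressors and targets then had 2 higher at 24 and 2 at 12 hours, and cyclins 4 higher at 24 hours and 3 lower at 12 hours. With the mean of probe sets, 11 FOXO regulators were higher at 24 hours. The 24-hour differences were then smaller for IGFBP1 (-0.58), SOCS3 (-0.44), CBLB (0.58), INPP4B (-0.28), RBL1 (-0.45), KLF2 (-0.85), E2F5 (-1.01), CDKN1C (0.66), CREBBP (-0.42) and IGF2R (0.25), and larger for PIK3C2A (1.19) and CCNA2 (-0.45). At 12 hours they were smaller for IGFBP1 (-0.38), IGFBP5 (-0.33), SOCS3 (-0.33), INPP4B (0.25) and PDK4 (0.14). With the class term the 12-hour differences were 0.23 for PIK3C2A and 0.26 for CCNE2, which was not called (adjusted p = 0.0576), -0.13 for IGF2R and -1.60 for IGFBP1. No named list gene that was called changed sign, though many of the settings, as given above, could not change it. Near the filter, as for FOXO4, PIK3IP1 and the HFM values of PRDM1 and HDAC4, signal over background limits the folds. FOXO1 and IRS2 gave no value without _x_at and _s_at probe sets, nor FOXO4 and PIK3IP1 with a filter at log2 6. At 24 hours the class term gives the same fit as leaving out HFM 12-hour replicate 1.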
